A study of Mus musculus with 18 samples.

Results

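The mouse Hox clusters, Hoxa, Hoxb, Hoxc and Hoxd, were examined in lists of chromatin regions that compare Notch1-driven leukaemia with normal thymocytes. The members were all listed regions and peaks sharing at least 1 bp with 4 windows of the mm9 genome, given for the clusters: Hoxa on chromosome 6 from 52100000 to 52290000, Hoxb on chromosome 11 from 96020000 to 96240000, Hoxc on chromosome 15 from 102740000 to 102990000 and Hoxd on chromosome 2 from 74480000 to 74610000. The windows held 477 of the 60531 rows in the lists, made up of 430 regions of H3K27me3, 10 of H3K4me3 and 0 of H3K9ac, with 37 peaks of Notch1. Hoxa held 131 of these rows, Hoxb 123, Hoxc 136 and Hoxd 87. The windows were chosen by the H3K27me3 regions listed in and around the clusters, so the counts and colours in them are given as a description, with no test.

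The normal cells were CD4+ CD8+ double-positive (DP) thymocytes from normal thymus. The leukaemia cells were T cell acute lymphoblastic leukaemia (T-ALL) tumours that over-expressed Notch1-IC, the intracellular and active form of the Notch1 receptor. Each histone mark had 2 libraries of each cell type, and Notch1 had 1 T-ALL library. How the libraries of a mark were combined into its list is not stated. The sources used here give neither strain and age nor the promoter or vector that drove Notch1-IC, nor whether replicates came from separate animals. The lists give positions and a display colour for each histone region, green or red, and neither headers nor labels say which colour is the higher in T-ALL. Colours are therefore reported as such, with no gain or loss assigned, and no region has a level, a fold change or a p-value. The lists hold changed regions only, so the cell types could not be checked against their markers. In bulk chromatin a change in the number of cells carrying a mark cannot be told apart from a change in the mark per cell.

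Hox genes encode homeodomain transcription factors that give cells along the body axis their positional identity. Within a cluster the genes stand in the order in which they are used, from the early, anterior genes of low number to the late, posterior genes of high number. In cells that do not use them, the clusters are textbook targets of Polycomb: Polycomb repressive complex 2 places H3K27me3 over whole clusters, while Trithorax-type complexes place H3K4me3 at promoters in use, where H3K9ac is also found. In blood, Hoxa9 and its neighbours are active in stem and progenitor cells and are switched off as T cells mature, and HOXA genes are expressed in a subset of human T-ALL.

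The windows match the chromosomes of the 38 Hox genes considered, all of which were found in the gene table used, RefSeq on build GRCm38.p6. Since that build differs from mm9, the table gave only gene order. Going up in coordinate, the Hoxa genes ran from Hoxa2 to Hoxa13, with Skap2 and Evx1 as the nearest other protein-coding genes below and above. The other clusters ran the other way, from Hoxb13 to Hoxb1 (between Ttll6 and Skap1), from Hoxc13 to Hoxc4 (between Calcoco1 and Smug1) and from Hoxd13 to Hoxd1 (between Evx2 and Mtx2). Positions along a window are given below as the distance from its edge on the Hox13 side, so that all clusters read from posterior to anterior genes. The Hoxa and Hoxd windows were longer than the stretch between their outermost listed promoters. A side of a window may thus include sequence beyond the outermost gene. No region was assigned to a single gene.

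Sequences were at hand for promoters and microRNAs of the clusters but not for the listed regions, whose genome build was not used here. The clusters descend from one ancestral cluster, and their microRNAs show this kinship at the level of letters: miR-10 genes stand beside Hoxb4 and in Hoxd, and miR-196 genes in Hoxa, Hoxb and Hoxc. The mature microRNAs from RefSeq follow, with the seed, bases 2 to 8, in capitals; the miR-10 pair shares one seed and the miR-196 pair another.
mmu-miR-10a-5p (Hoxb): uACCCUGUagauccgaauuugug
mmu-miR-10b-5p (Hoxd): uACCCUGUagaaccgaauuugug
mmu-miR-196a-5p (Hoxb and Hoxc): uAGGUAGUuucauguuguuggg
mmu-miR-196b-5p (Hoxa): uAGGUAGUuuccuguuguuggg

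The RefSeq promoter table, 250 bases before to 50 after a gene start, held 24 promoters of 22 of the Hox genes. They were rich in CpG dinucleotides, the feature of promoters that Polycomb complexes favour, with a median of 14.5 CpG (range 4 to 45) against 7 over all 32851 promoters in the table. The letters TGGGAA, the core of the site bound by RBPJ, the DNA-binding partner of Notch, were searched on both strands. They stood in 5 of the 24 Hox promoters (20.8%) and in 25.6% of all promoters, no higher a share. The 250 bases before the start are shown for Hoxa13, which had the most CpG in its promoter (45), and for Hoxd3, which had the most matches (2). Capitals mark the matches, all of which read TTCCCA here, the letters TGGGAA of the other strand. The coordinates are on GRCm38.p6 (Hoxa13, minus strand, chr6:52260881-52261130; Hoxd3, plus strand, chr2:74711743-74711992) and must not be set against the mm9 windows.
Hoxa13 promoter: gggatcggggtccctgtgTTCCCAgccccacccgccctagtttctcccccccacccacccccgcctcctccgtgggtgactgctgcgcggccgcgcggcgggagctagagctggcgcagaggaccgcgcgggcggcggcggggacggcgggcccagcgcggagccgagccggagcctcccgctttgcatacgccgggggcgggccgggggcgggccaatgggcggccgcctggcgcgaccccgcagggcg
Hoxd3 promoter: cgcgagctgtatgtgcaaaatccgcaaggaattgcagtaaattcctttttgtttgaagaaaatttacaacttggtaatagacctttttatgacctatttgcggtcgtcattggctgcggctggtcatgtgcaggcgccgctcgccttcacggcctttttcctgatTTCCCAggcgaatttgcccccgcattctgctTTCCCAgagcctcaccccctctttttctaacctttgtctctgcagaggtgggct

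H3K27me3 was listed in every bin of 10 kb along the windows, and green regions were the more frequent colour in each window. Green regions numbered 294 and red ones 136, which put green at 68.4% (95% Clopper-Pearson interval 63.7 to 72.7), where green made up 42.6% of the whole H3K27me3 list. Hoxc was the greenest, with 99 of 131 regions (75.6%, 67.3 to 82.7), followed by Hoxb with 80 of 112 (71.4%, 62.1 to 79.6). Hoxd had 49 green of 78 regions (62.8%, 51.1 to 73.5) and Hoxa 66 of 109 (60.6%, 50.7 to 69.8). The intervals cover counting error only, treat neighbouring regions as separate, and overlap for each pair of neighbours in that order, so the order of the clusters is not resolved beyond counting error.

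Each window stood above the rest of its own chromosome. On chromosome 6 outside the Hoxa window green made up 46.3% of 958 regions, on chromosome 11 outside Hoxb 43.8% of 2135, on chromosome 15 outside Hoxc 37.0% of 1018 and on chromosome 2 outside Hoxd 42.8% of 2256. Other dense places were less green: 320 dense clusters elsewhere, runs of 10 or more H3K27me3 regions with gaps of at most 5 kb, had 4624 regions of which 51.9% (50.5 to 53.4) were green. With no replicate values, these differences between places were not tested.

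**Figure D1:**
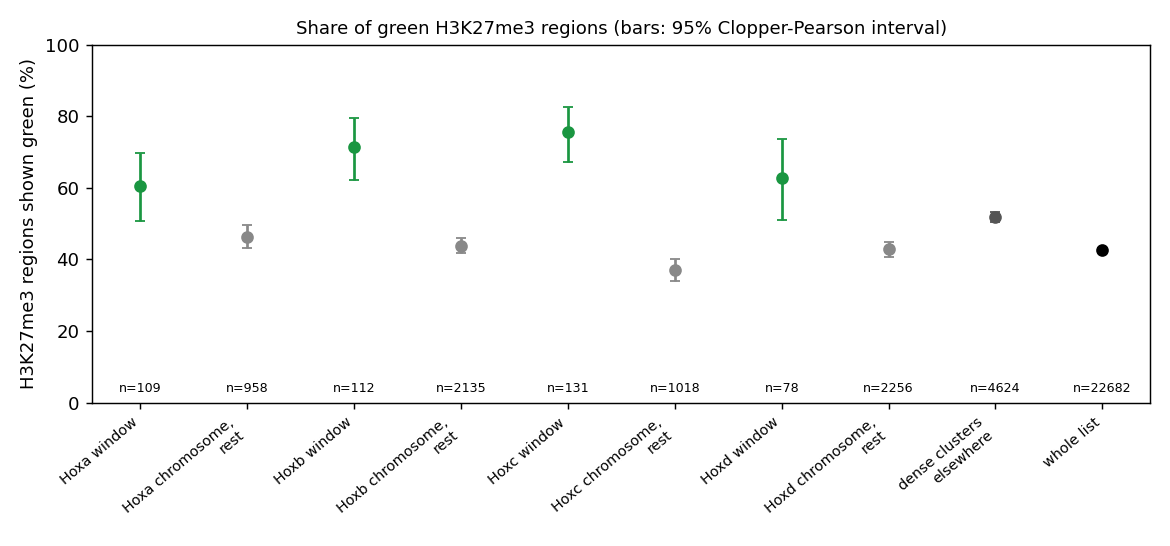
Share of H3K27me3 regions shown green (y axis, percent; bars, 95% Clopper-Pearson interval; n, regions) in each Hox window, on the rest of its chromosome, in dense clusters elsewhere and in the whole list. The 4 windows lie between 60.6% and 75.6%, and the rest of their chromosomes between 37.0% and 46.3%.

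Listed H3K27me3 regions were dense in every window. The windows held 50.9 (Hoxb), 52.4 (Hoxc), 57.4 (Hoxa) and 60 (Hoxd) H3K27me3 regions per 100 kb. When the genome was cut into tiles as long as each window, no tile away from the Hox windows held as many. The windows were chosen by these same regions and the tiles were not, so this ranking describes the choice and tests nothing. Counting also the tiles that overlap the windows, the share at or above the count was 0% for the lengths of Hoxa, Hoxc and Hoxd, and 0.00833% (1 tile of 12009) for that of Hoxb. The Hoxa window had 109 regions against at most 67 in another 190 kb tile, Hoxb 112 against 74 in 220 kb, Hoxc 131 against 81 in 250 kb, and Hoxd 78 against 57 in 130 kb. Green regions covered 29.1% of the bases of Hoxa, 30.1% of Hoxb, 34.2% of Hoxc and 34.6% of Hoxd. Red regions covered 17.1%, 11.5%, 9.33% and 19.5% in the same order.

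The extent of the dense stretch differed at the edges. Below Hoxd, on the Evx2 side, the nearest region outside the window ended 35.5 kb before it, whereas the first region inside began 2.00 kb within. Above Hoxc, on the Smug1 side, the last region inside ended 9.23 kb before the edge and the next one began 7.03 kb beyond it. At the other 6 edges the nearest regions inside and outside lay 0.575 to 3.53 kb from the edge. The 100 kb on either side held 9 regions around Hoxa (all green), 27 around Hoxb (19 green), 20 around Hoxc (15 green) and 13 around Hoxd (12 green).

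**Figure D2:**
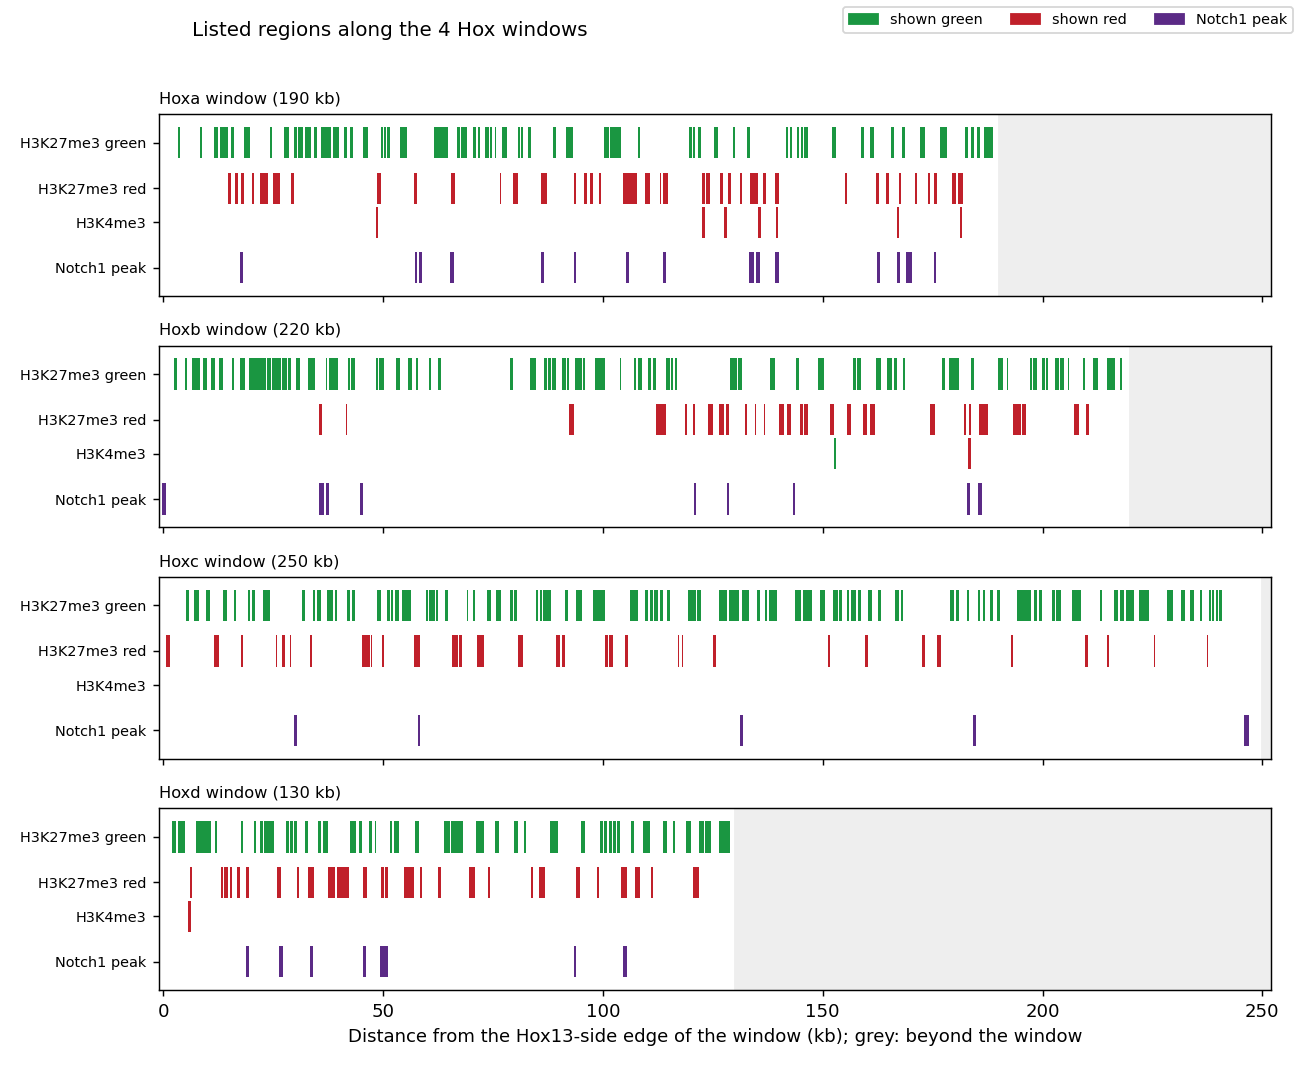
Every listed region along the 4 windows, by distance in kb from the edge on the Hox13 side (x axis), with rows for green and red H3K27me3, H3K4me3 and Notch1; boxes are drawn to the listed widths. Green and red H3K27me3 alternate in Hoxa and Hoxd, the Hox13 side of Hoxb is nearly all green, and Hoxc has no H3K4me3 region.

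Within the clusters the colours were finely interleaved. Going from each H3K27me3 region to the next, the colour changed at 42 of 77 steps in Hoxd (54.5%), 52 of 108 in Hoxa (48.1%), 45 of 130 in Hoxc (34.6%) and 34 of 111 in Hoxb (30.6%). Over neighbours at most 5 kb apart, 172 of 424 pairs in the windows differed in colour (40.6%), close to the 42.0% of such pairs in the whole list and the 41.2% in dense clusters elsewhere. Mixing of the colours was thus as frequent in other parts of the list as in the Hox clusters. The gaps between neighbours were short, with medians of 500 bp in Hoxd, 613 bp in Hoxa, 800 bp in Hoxc and 850 bp in Hoxb.

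Red runs were mostly single regions, except in Hoxb. Of 26 red runs in Hoxa, stretches of neighbours of one colour, 15 were a single region, as were 16 of 23 in Hoxc, 15 of 21 in Hoxd and 7 of 17 in Hoxb. In Hoxa 3 red runs tied at the largest number, 4 regions, from 52150026 to 52156550 with 3 Notch1 peaks, and from 52175151 to 52180450 and 52192176 to 52196650 with 1 each. Hoxb had 1 red run of 5 regions (96138601 to 96148750, with 2 Notch1 peaks). In Hoxc 2 red runs tied at 3 regions (102765701 to 102769125 and 102840551 to 102845775), as did 2 in Hoxd (74493226 to 74495675 and 74517576 to 74522150), all 4 with 0 Notch1 peaks. The longest green run had more regions than the longest red one in every cluster, green being the more frequent colour. Median runs were 1 region for both colours in Hoxa and 2 for both in Hoxb. In Hoxc they were 4 for green and 1 for red, and in Hoxd 2 and 1. The longest green run had 18 regions in Hoxb (96022476 to 96054525) and 11 in Hoxc (102866326 to 102890575, with 1 Notch1 peak). It had 9 in Hoxa (52243426 to 52260175) and 5 in Hoxd (74579351 to 74583775). The longest green runs of Hoxa, Hoxb and Hoxd held 0 Notch1 peaks.

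Hoxb was the most uneven cluster along its length. Its first 110 kb from the Hoxb13 side held 46 green and 4 red regions (92.0% green, 80.8 to 97.8), and its other 110 kb, towards Hoxb1, held 34 green and 28 red (54.8%, 41.7 to 67.5). The stretch was broken by a gap of 15.8 kb without a listed H3K27me3 region, from 96083076 to 96098875. On the Hoxb13 side of that gap 30 of 32 regions were green (93.8%), and on the Hoxb1 side 50 of 80 (62.5%). Red outnumbered green in 5 of the 22 bins of 10 kb, all of them between 120 and 190 kb from the Hoxb13-side edge. In the gene order Hoxb13, a posterior gene expressed in tail bud, hindgut and prostate, comes first and Hoxb9 next.

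Hoxa leaned the same way and Hoxc and Hoxd the other. In Hoxa the 95 kb on the Hoxa13 side were 71.2% green (37 of 52 regions; 56.9 to 82.9) and the 95 kb on the Hoxa2 side 50.9% (29 of 57; 37.3 to 64.4). In Hoxc the Hoxc13 side was 69.0% green (49 of 71; 56.9 to 79.5) and the Hoxc4 side 83.3% (50 of 60; 71.5 to 91.7). In Hoxd the values were 56.8% (25 of 44; 41.0 to 71.7) and 70.6% (24 of 34; 52.5 to 84.9). The intervals of the paired sides overlap in Hoxa, Hoxc and Hoxd and do not in Hoxb. From the Hox13 side to the low-numbered side the green share was lower in Hoxa and Hoxb and higher in Hoxc and Hoxd. The windows were cut at their middle and not at a gene, so these values give no trend along the genes.

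**Figure D3:**
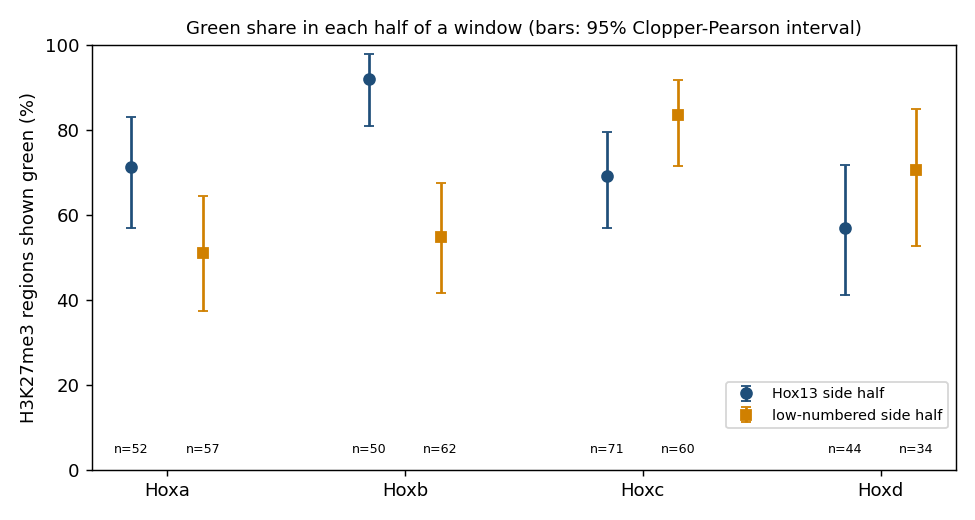
Share of H3K27me3 regions shown green (y axis, percent; bars, 95% Clopper-Pearson interval; n, regions) in the Hox13-side part (circles) and the low-numbered part (squares) of each window, cut at the middle. Hoxb falls from 92.0% to 54.8% and Hoxa from 71.2% to 50.9%, while Hoxc and Hoxd are higher on the low-numbered side.

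**Figure D4:**
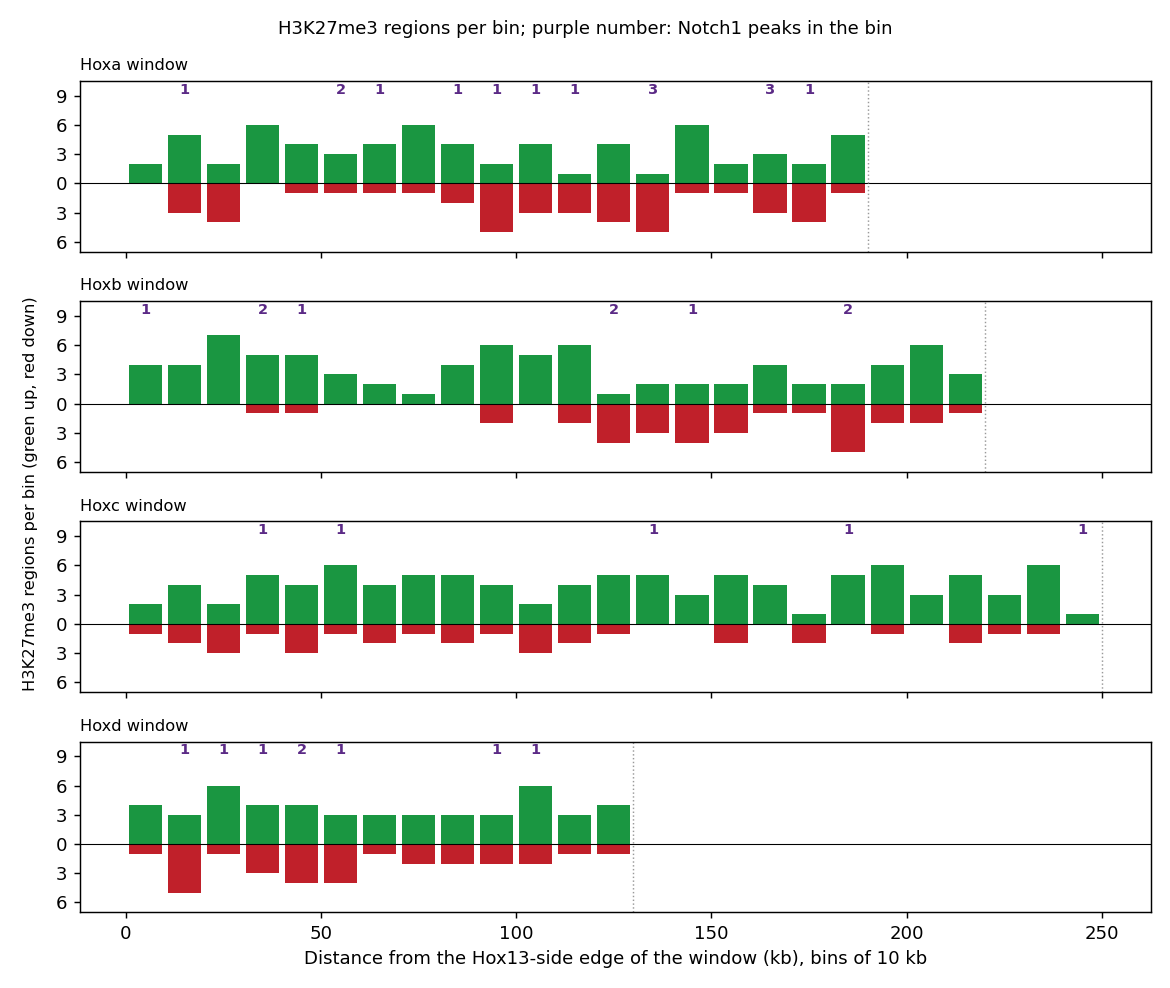
H3K27me3 regions per bin of 10 kb (y axis, counts; green bars up, red bars down) by distance in kb from the Hox13-side edge (x axis), with the number of Notch1 peaks above each bin. Red outnumbers green in 5 of 19 bins in Hoxa, 5 of 22 in Hoxb, 3 of 25 in Hoxc and 2 of 13 in Hoxd.

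Green regions were somewhat wider than in the whole list and red ones somewhat narrower, which was not tested. Green regions had a median width of 725 bp in the windows and 650 bp in the whole list, and red ones 675 bp and 750 bp. At or above the median of the list for their colour were 178 of 294 green regions (60.5%; 52.3% in the whole list) and 62 of 136 red ones (45.6%; 51.2% in the whole list). The widest single region was green, 3350 bp in Hoxd from 74487526 to 74490875, near the Hoxd13 side. The next widest green regions of Hoxd lay from 74567926 to 74569825 (1900 bp) and from 74546251 to 74548125 (1875 bp). Its widest red regions were 1975 bp (74519401 to 74521375), 1800 bp (74535301 to 74537100) and 1575 bp (74517576 to 74519150), and none of the 3 held a Notch1 peak.

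In Hoxa the widest green and the widest red region stood almost side by side. The red one spanned 2375 bp from 52182976 to 52185350 and held a Notch1 peak, and the green one spanned 2550 bp from 52185801 to 52188350 and held 0. Other wide regions of Hoxa were green from 52226001 to 52228450 (2450 bp) and 52251801 to 52254200 (2400 bp), and red from 52266126 to 52267900 (1775 bp) and 52263401 to 52265050 (1650 bp). The last 2 lay on the Hoxa13 side with a green region of 550 bp between them, and held 0 Notch1 peaks.

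In Hoxb the widest green regions were 2475 bp (96040801 to 96043275), 2225 bp (96057626 to 96059850, with 1 Notch1 peak) and 2075 bp (96198701 to 96200775). The widest red ones were 2250 bp (96132076 to 96134325), 1775 bp (96213276 to 96215050) and 1275 bp (96146376 to 96147650), with 0 Notch1 peaks. In Hoxc green reached 2300 bp (102961951 to 102964250), 2200 bp (102838351 to 102840550) and 2075 bp (102946701 to 102948775). Red reached 1850 bp (102785151 to 102787000), 1700 bp (102811326 to 102813025) and 1500 bp (102797001 to 102798500), and only the last of these held a Notch1 peak.

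H3K4me3 changes were few and nearly all red. The windows held 10 H3K4me3 regions, 9 red and 1 green, where red made up 52.1% and green 47.9% of the whole H3K4me3 list, and red 86.5% of the 267 regions in dense clusters elsewhere. Hoxa held 7 of the 10, all red, Hoxb 2, Hoxd 1 and Hoxc 0. Of the 9 red regions 7 shared bases with a red H3K27me3 region, against 13.3% of red H3K4me3 regions in the whole list, and 0 shared bases with a green one. The share was not tested, and red H3K27me3 covered 17.1% of Hoxa against 0.442% of the span of the lists. Dense clusters elsewhere, the closer comparison, held 231 red H3K4me3 regions, and 194 red H3K27me3 regions there met red H3K4me3. These counts are of different marks and give no share of the 231. Whether 7 of 9 is particular to the Hox clusters was thus not settled. Seen from H3K27me3, 7 of 136 red regions met red H3K4me3 (8.73% in dense clusters elsewhere, 11.4% in the whole list). Of 294 green ones 0 did (1.17% in dense clusters elsewhere, 1.65% in the whole list).

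Along Hoxa the H3K4me3 regions lay mainly on the Hoxa2 side of the window, and no region was placed at a gene. In the gene order Hoxa2 and Hoxa3, patterning genes of the hindbrain and pharyngeal arches, come first. The first 6 lay between 52108226 and 52167575. The first, from 52108226 to 52108725, shared bases with red H3K27me3. The second, from 52122576 to 52123075, and the third, from 52150101 to 52150625, shared bases with both red H3K27me3 and a Notch1 peak. These are places where all 3 lists meet.

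The fourth, from 52154126 to 52154700, met a Notch1 peak and ended 100 bp from a red H3K27me3 region. The fifth, from 52161751 to 52162450, lay 200 bp from one, and the sixth, from 52166876 to 52167575, shared bases with one. Only the seventh, from 52241076 to 52241700, lay on the Hoxa13 side, and it too met red H3K27me3. All were narrow, 500 to 700 bp.

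Outside Hoxa the H3K4me3 regions were isolated. In Hoxb the red one, from 96203001 to 96203675, met both red H3K27me3 and a Notch1 peak, and the green one, from 96172451 to 96173100, met a red H3K27me3 region. That green region was the only one in the clusters where the 2 marks had different colours. In Hoxd the single red region, from 74485726 to 74486225, lay near the Hoxd13-side edge and met red H3K27me3.

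No H3K9ac region lay in any window. The H3K9ac list held 168 regions on chromosome 6, 291 on chromosome 11 and 199 on chromosome 2, and the nearest to a window lay 299150 bp from Hoxa, 62925 bp from Hoxb and 886475 bp from Hoxd. It held 0 regions on all of chromosome 15, so it tells nothing of Hoxc. A list of changed regions cannot show whether the mark was present and equal in both cell types or absent from both.

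Notch1 peaks were found in every cluster, most densely in Hoxa and Hoxd. Hoxa held 15 peaks (7.89 per 100 kb), Hoxd 8 (6.15), Hoxb 9 (4.09) and Hoxc 5 (2.00), against 0.552 per 100 kb over the span of the lists. Of all tiles of 190 kb, 0.496% held as many as Hoxa. For Hoxd the share of tiles of its length was 1.45%, for Hoxb 2.89% and for Hoxc 8.99%. Dense H3K27me3 clusters elsewhere held 6.84 peaks per 100 kb, within the range of the Hox windows. The peaks were 500 to 1350 bp wide with a median of 750 bp, against 675 bp in the whole list, and they come from 1 library with no replicate.

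Most peaks stood on red H3K27me3. A red region was met by 27 of the 37 peaks (73.0%, 55.9 to 86.2), against 22.6% of all peaks, and a green one by 3 (8.11%, 1.70 to 21.9), against 0.700%. Dense clusters elsewhere, the closer comparison, had 88.8% (85.9 to 91.2) of 579 peaks in red and 4.84% in green. In Hoxd all 8 peaks met red, and in Hoxa 13 of 15. Hoxb had 5 of 9, and Hoxc 1 of 5, and these differences between clusters were not tested. A peak was nearer to red than to green in 28 of the 37 cases, in 79.2% of the whole list and in 534 of the 579 cases in dense clusters elsewhere.

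Seen from the regions, 27 of 136 red regions (19.9%, 13.5 to 27.6) and 4 of 294 green ones (1.36%, 0.372 to 3.45) held a Notch1 peak. The shares in the whole list were 24.7% and 1.12%. By cluster the red share was 13 of 43 in Hoxa, 8 of 29 in Hoxd, 5 of 32 in Hoxb and 1 of 32 in Hoxc. Red regions with a peak had a median width of 750 bp and those without 675 bp.

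**Figure D5:**
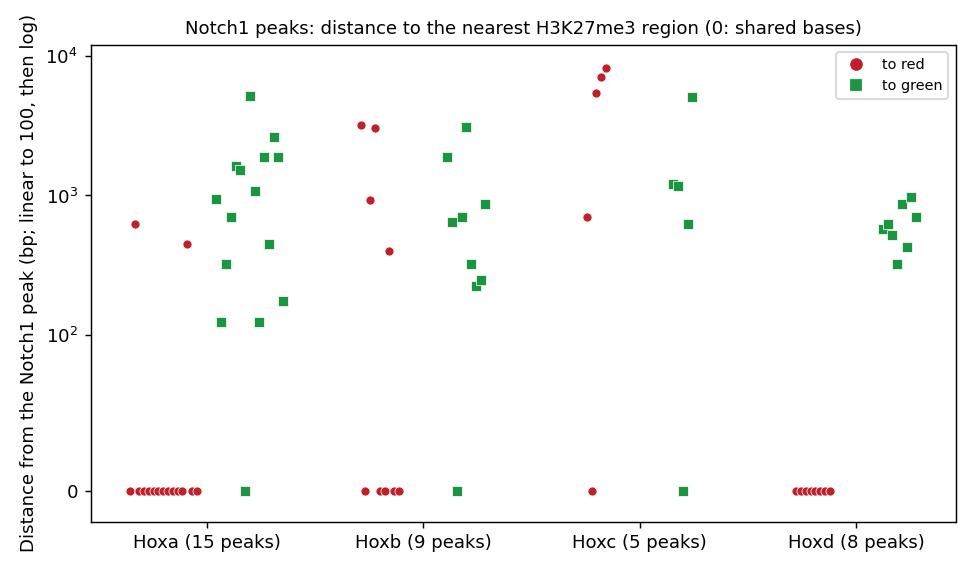
Distance from each Notch1 peak to the nearest red (circles) and the nearest green (squares) H3K27me3 region in bp (y axis, linear to 100 bp and logarithmic above), by cluster; 0 means shared bases. All 8 Hoxd peaks and 13 of 15 Hoxa peaks lie at 0 from red, and 3 of the 37 peaks lie at 0 from green.

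In Hoxd 6 of the 8 peaks lay in the 65 kb on the Hoxd13 side: from 74498726 to 74499525, 74506326 to 74507225, 74513351 to 74514050, 74525501 to 74526025, 74529351 to 74530200 and 74530276 to 74531150. The last 2 are close neighbours, and each met its own red H3K27me3 region. The other 2, from 74573426 to 74573975 and from 74584476 to 74585400, lay towards Hoxd1. Hoxd13 to Hoxd9, which come first in the gene order, are known for shaping limbs and digits, but no peak was placed at a gene. No peak in Hoxd met a green region, although the nearest green one was 325 to 975 bp away.

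In Hoxa the peaks spread over the whole window, with 9 on the Hoxa2 side and 6 on the Hoxa13 side. A first group, from the low-numbered edge, ran from 52114251 to 52114775, 52119751 to 52121100, 52122326 to 52123175 and 52126876 to 52127675. The second of these, the widest peak of the clusters at 1350 bp, met no H3K27me3 region, with green 125 bp and red 625 bp away. The third met red H3K27me3 and red H3K4me3.

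A second group of 3 met the first of the 3 red runs of 4 regions in Hoxa, from 52149951 to 52150850, 52154251 to 52155075 and 52155651 to 52156775. The first 2 of these also met red H3K4me3, and the third met both a red and a green H3K27me3 region, the only peak of the 37 to do so. Those first 2 and the peak at 52122326 were 3 of the 4 peaks in the clusters that shared bases with red H3K4me3 (10.8% of 37; 13.3% of all peaks).

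The middle of the Hoxa window held single peaks at 52175576 to 52176425, 52183976 to 52184725 (inside the widest red region), 52196076 to 52196650 and 52203326 to 52204100. Further peaks lay from 52223826 to 52224700 and from 52232301 to 52232800, all 6 in red H3K27me3. A peak from 52231051 to 52231775 met no region and lay 450 bp from red. The last, from 52271851 to 52272525, met red H3K27me3 near the Hoxa13-side edge. In the gene order Hoxa9, which with its cofactor Meis1 drives self-renewal of blood progenitors, stands between Hoxa7 and Hoxa10, and no peak was placed at a gene.

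In Hoxb 4 peaks lay on the green Hoxb13 side and 5 on the Hoxb1 side, too few to compare the sides, which was not tested. Red made up 4 of 50 H3K27me3 regions on the Hoxb13 side and 28 of 62 on the Hoxb1 side. Of the 4 on the Hoxb13 side, one from 96019676 to 96020575, which crosses the window edge, and one from 96064851 to 96065400 met no region. One from 96056976 to 96057650 met 2 green regions, and one from 96055501 to 96056450 met a red one, which is 1 of the 2 red regions before the gap of 15.8 kb. On the Hoxb1 side 4 of 5 met red: 96140676 to 96141175, 96148126 to 96148625, 96202926 to 96203575 and 96205301 to 96206200. The fifth, from 96163201 to 96163750, lay 225 bp from green and 400 bp from red.

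Hoxc had the fewest peaks and the fewest in red. The peak from 102797826 to 102798500 met red and that from 102871226 to 102871850 met green, inside the longest green run of the cluster. Those from 102769826 to 102770425, 102924076 to 102924750 and 102985801 to 102986875 met neither. The last lay 5025 bp from green and 8100 bp from red, the farthest from red of all 37 peaks.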

How the data were processed

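The series holds 18 libraries (8 from DP thymocytes, 10 from T-ALL) and 4 region lists made by the authors. The submitters' processing notes name BWA and the builds NCBIM37 and mm9; nothing used here names the caller, its thresholds, the use of inputs or how replicates were combined. Per the file headers and values, the deposited score column reads 1000 throughout and carries no measurement, and all starts and ends are multiples of 25 bp. Depth per library is unknown. Starts are printed 1-based.

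Regions sharing at least 1 bp with a window were its members. Shares carry 95% Clopper-Pearson intervals (SciPy 1.17.1, Python 3.11.15). Overlap, coverage and distance code was tested on simulated intervals. No statistical test was made: the lists hold no values per library, the windows were chosen on these data, and regions are not replicates. The members, windows and lists were chosen with earlier results of these data known. Named with coordinates are all Notch1 peaks and H3K4me3 regions, the 3 widest regions of each colour and the longest run of each colour per window.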

Additional observations from a re-analysis of the deposited data

How the results depend on the processing

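No paired analysis was possible because no list separates its libraries, which also meant that leaving out a replicate was not run. Of 86 alternatives tried on 19 results, 69 stayed within the interval of a share or within 1.5 times a count. Some of the 69 could not move: with 0 H3K9ac regions, shorter windows or a width filter must again give 0. Requiring 50% of a region to lie inside its window left every green share unchanged. Green remained above 50% of H3K27me3 regions in all 30 settings tried on the windows together and singly. Merging regions of one colour within 1 kb lowered the green share to 60.3% over the windows (41.4% in the whole list treated likewise), to 64.9% in Hoxc, to 53.7% (41.1 to 66.0) in Hoxa and to 54% (39.3 to 68.2) in Hoxd, the last 2 with intervals that include 50%, and the cause was not tested. By construction it also lowered the density to 35.3 per 100 kb in Hoxa, 30.9 in Hoxb, 30.8 in Hoxc and 38.5 in Hoxd. Keeping features at or above the median width of their list gave 25.8, 28.2, 25.6 and 39.2 in the same order, and left 4 Notch1 peaks in Hoxb, 3 in Hoxc and 4 H3K4me3 regions in all. Of the 37 Notch1 peaks 86.5% lay within 1 kb of red H3K27me3 and 67.6% within 1 kb of green, and 0% had 50% of their bases in green. In bins of 5 kb green was the more frequent colour in 63.3% of bins, against 77.2% in bins of 10 kb.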
